A study of Rattus norvegicus with 13 samples.

Results

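The genes examined here build glycosaminoglycans, the long sulfated sugar chains of proteoglycans, and 40 of them were listed by name, from the supply of nucleotide sugars to the sulfatases that edit finished chains. On the Affymetrix Rat Genome 230 2.0 array, 51 of 31042 probe sets were annotated to exactly 1 of these genes. They covered 35 of the 40 genes, among 14217 genes with a probe set of their own, and Slc35d1, Chst7, Chst15, Ust and Dse were not measured. Each gene is represented by the probe set with the highest mean signal among its own.

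RNA came from articular chondrocytes at the second passage, pooled from femoral head cartilage of Wistar rats (male, 2 months old), with 1 array per flask. Of the 13 arrays, 4 were of cultures given 20 mM glucosamine 6 hours before 10 ng/ml IL-1β was added for 14 hours with glucosamine still present, 4 of cultures given IL-1β alone at the same dose for 14 hours, 2 of cultures given 20 mM glucosamine alone for 20 hours, and 3 of untreated cultures. All flasks came from the same pool of cells, so that each p-value reflects flask-to-flask spread and not that between animals, and each culture is an expanded monolayer of dividing cells outside its matrix. The study asked how glucosamine alters the transcriptional response of chondrocytes to the inflammatory cytokine IL-1β.

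Signals are the expression values deposited by the authors, on a linear scale. Before log2 was taken they were raised to at least 5.71, the 25th percentile of all values, which is called the floor. A gene was called changed where limma, fitted to all 4 groups and 29263 probe sets, gave a Benjamini-Hochberg adjusted p under 0.05. Log2 fold changes are given with their standard error (SE), and signals as mean ± SD. Signals of different probe sets are not on a common scale, so no gene's level is compared with that of another gene.

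In cartilage, glycosaminoglycan chains are carried mainly by aggrecan, whose chondroitin sulfate and keratan sulfate hold water in the matrix. Chondroitin sulfate and heparan sulfate start from a shared linker of xylose, galactose and glucuronic acid on a serine of the core protein, and the next sugar added decides between the 2 chain types. Sulfotransferases in the Golgi then sulfate the chain with the donor PAPS, and extracellular sulfatases remove some sulfate groups from heparan sulfate again. Exogenous glucosamine enters the hexosamine pathway, which supplies the amino sugars of these chains, whereas IL-1β is known for suppressing proteoglycan synthesis in cartilage.

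Promoters of 32 of the 40 genes were found in RefSeq (build GRCr8), as windows of 250 bases before and 50 bases after the annotated start. Shown here are the 250 bases upstream for Ugdh, whose signal was highest with IL-1β alone, B3gat3, whose signal was highest with glucosamine, and Sulf2, whose signal was lower in all 3 treatments than in untreated cultures. Capitals mark matches on either strand to CCACG (the core of the ATF6 and XBP1 motif) or to the NF-kB motif. No match to TGANTCA (AP-1) or TGACGT (part of the cAMP response element) lies in them.
Ugdh, chr14:43202268-43202517, plus strand: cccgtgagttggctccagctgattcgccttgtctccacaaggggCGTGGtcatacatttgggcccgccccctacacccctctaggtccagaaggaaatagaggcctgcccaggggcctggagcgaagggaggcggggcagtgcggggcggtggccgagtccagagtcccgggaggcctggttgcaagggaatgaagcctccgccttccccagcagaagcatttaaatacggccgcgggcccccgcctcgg
B3gat3, chr1:215246232-215246481, plus strand: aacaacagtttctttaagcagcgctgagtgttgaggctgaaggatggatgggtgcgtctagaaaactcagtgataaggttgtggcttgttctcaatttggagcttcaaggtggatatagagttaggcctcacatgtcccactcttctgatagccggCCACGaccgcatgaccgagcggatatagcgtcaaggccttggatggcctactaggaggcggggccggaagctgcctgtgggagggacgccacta
Sulf2, chr3:175323652-175323901, minus strand: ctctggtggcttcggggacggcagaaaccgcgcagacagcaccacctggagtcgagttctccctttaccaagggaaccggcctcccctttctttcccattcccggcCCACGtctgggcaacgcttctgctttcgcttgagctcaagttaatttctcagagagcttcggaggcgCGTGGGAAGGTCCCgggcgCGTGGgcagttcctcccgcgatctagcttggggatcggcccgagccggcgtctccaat
In the Sulf2 window an NF-kB match on the minus strand, from 73 to 64 bases before the start, overlaps a CCACG match by a single base. Over whole windows, CCACG was found in 20 of 32 promoters of the listed genes (62.5%) and in 35.5% of 21842 promoters of protein-coding genes, and GGGCGG (the GC box) in 21 (65.6%) and 41.8%. The NF-kB motif was found in 8 (25%) and 8.30%, namely B4galt7, Chpf, Chst2, Papss2, Slc26a2, Sulf2, Ust and Xylt1. The match in Chst2 lies from 11 to 20 bases after the start. With IL-1β alone, Chst2 was called higher, B4galt7, Papss2 and Sulf2 were called lower, and the others were not called or not measured. CCAAT was found in 7 (21.9%) and 38.0%, TGACGT in 4 (12.5%) and 8.79%, and TGANTCA in none of the 32 against 6.53%. These are matches to letters in a short window, and the data do not show binding at any of them.

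The cultures expressed cartilage genes, and 7 of the 8 chondrocyte markers measured were above the floor on every array. Chad, which encodes chondroadherin, was at the floor on all of them. The summed signal of the 8 markers ranged from 5679 to 6818 with glucosamine plus IL-1β, from 5136 to 6226 with IL-1β alone, from 7242 to 7591 with glucosamine alone and from 9410 to 10663 in untreated cultures, with 6 of the 8 called lower by IL-1β and 2 by glucosamine. In the same order of groups, the sums of 4 smooth muscle markers ranged from 549 to 729.9, 963 to 1198, 1002 to 1096 and 2061 to 2330 (4 called lower by IL-1β and 3 by glucosamine). Those of 7 fibroblast markers ranged from 13854 to 15942, 13574 to 15990, 13550 to 14370 and 14184 to 16178 (2 called higher and 2 lower by IL-1β, and 1 lower by glucosamine). Those of 7 leukocyte markers were 375 to 441, 591 to 625, 292 to 358 and 256 to 278 (2 called higher by IL-1β, Ptprc near the floor), those of 4 adipocyte markers 93.5 to 197, 592 to 1052, 29.3 to 42.1 and 21.4 to 28.7 (1 called, Fabp4), and those of 5 endothelial markers 82.5 to 252, 114 to 277, 75.9 to 79.2 and 65.9 to 95.3 (2 called higher by IL-1β). Those of 6 bone cell markers were 5022 to 6723, 4153 to 5502, 4946 to 5227 and 3261 to 3907 (1 called higher and 1 lower by IL-1β, and likewise by glucosamine). Fewer cells of a type and less RNA per cell cannot be told apart in such samples, and the part of these shifts in the results that follow was not tested. Ptgs2 and Il6, known IL-1β targets, were called higher with IL-1β alone than in untreated cultures. The replicate d arrays of glucosamine plus IL-1β and of IL-1β alone stood apart, with r of 0.880 to 0.905 to the other arrays of their group against 0.977 to 0.993 between all other arrays of a group, and with 1st percentiles of -36.8 and -31.0 against -6.47 to -4.81 elsewhere.

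With IL-1β alone, 8 of the 35 glycosaminoglycan genes were called higher and 13 lower than in untreated cultures (60%), where 15.5% and 15.3% of all 13748 genes tested were called higher and lower (30.8% together). The median log2 fold change of the 35 was -0.31 and that of all genes tested was 0.09. The genes higher were Ugp2, Ugdh, Chsy1, Chst12, Chst1, Chst2, Extl3 and Sulf1. Among those lower were 3 linker enzymes, 3 of 5 chondroitin polymerization genes, 3 of 4 heparan polymerization genes and both PAPS synthases. Quantile normalization moved the median of all probe sets in this comparison to 0 from 0.10, and gave 7 members higher and 15 lower. Of all probe sets it called 7037, against 7067 without it. Of the 35 genes, 23 had an untreated mean of 100 or more, whereas medians over all probe sets were 23.2 to 24.2 on the untreated arrays. The shares called, here and below, were not matched for signal. Whether the 35 differ from other genes of similar signal was not tested.

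With glucosamine alone, 5 members were called higher and 8 lower than in untreated cultures (37.1%), against 10.4% and 9.37% of all genes (19.7% together). Ugp2, B3gat3, Csgalnact2, Chst12 and Extl3 were higher, and Chsy1, Chst1, Ext1, Extl2, Hs2st1, Hs6st1, Sulf1 and Sulf2 were lower. This comparison rests on 2 glucosamine arrays. The number called was 8 without replicate a and 7 without replicate b of glucosamine alone, and 20 without both replicate d arrays, which belong to the other treatments but enter the shared estimate of spread. The number of all probe sets called moved with it, and was 4300 with all arrays, 2599 and 2389 without replicate a or b of glucosamine alone, and 7108 without both replicate d arrays.

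With glucosamine plus IL-1β, 8 members were called higher and 11 lower than in untreated cultures (54.3%), against 16.6% and 14.7% of all genes (31.4% together). The genes higher were Ugp2, Ugdh, B3gat3, Csgalnact2, Chpf, Chst12, Extl3 and Glce, and those lower were Xylt2, Csgalnact1, Chsy1, Chst1, Ext1, Ext2, Extl2, Hs2st1, Hs6st1, Papss1 and Sulf2. Set against IL-1β alone, the same cultures had 9 members called higher and 9 lower (51.4%), against 15.8% and 14.8% of all genes (30.6% together). Here B4galt7, B3galt6, B3gat3, Csgalnact1, Csgalnact2, Chpf, Ext1, Glce and Papss2 were higher, and Ugdh, Fam20b, Chsy1, Chst1, Chst2, Hs2st1, Hs6st1, Sulf1 and Sulf2 were lower. Set against glucosamine alone, a single member was called, Ugdh, which was higher (2.86% of the 35), against 1.45% of all genes called higher and 1.13% called lower (2.57% together). At an unadjusted p under 0.05 in limma, 2 members were higher and 5 lower in that last comparison, and quantile normalization gave 1 higher and 2 lower. The share of all genes at that unadjusted p is not given here. Of all probe sets, quantile normalization called 527 in that comparison, against 525 without it. The authors' analysis of variance with Tukey's test called 4 members there, among them Csgalnact2, Papss1 and Papss2 as lower. It called 865 of all probe sets there.

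**Figure D1:**
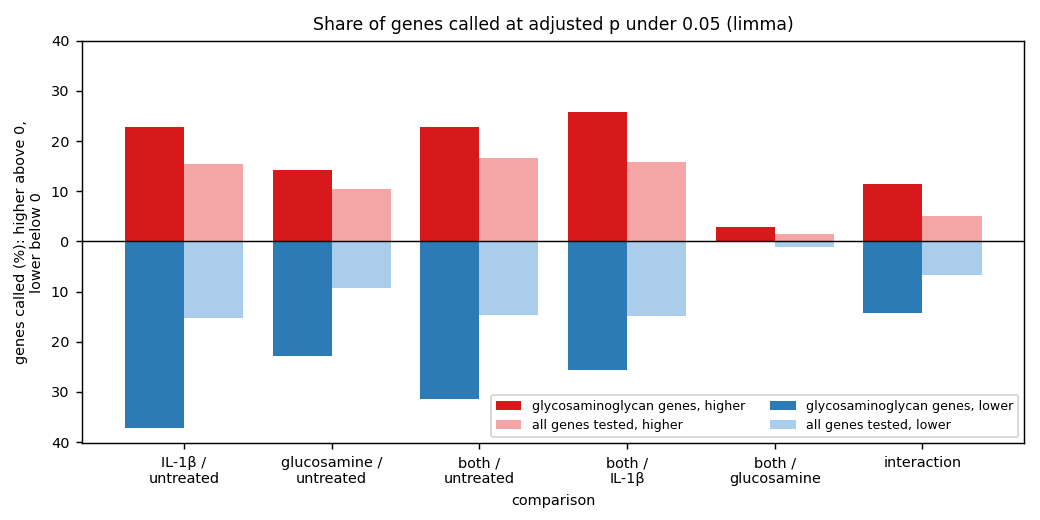
Share of genes called at an adjusted p under 0.05 in each comparison (percent, vertical axis; higher above 0, lower below 0), for the 35 glycosaminoglycan genes (dark bars) and all 13748 genes tested (light bars); "both" is glucosamine plus IL-1β. Together the dark bars reach 60% where IL-1β alone is set against untreated cultures, and 2.86% where both agents are set against glucosamine alone. Genes behind dark and light bars were not matched for signal.

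The interaction asks whether the IL-1β response differed between cultures with and without glucosamine, and is the log2 change between both agents and glucosamine alone minus that between IL-1β alone and untreated cultures. It was called for 9 of the 35 genes (25.7%), 4 higher and 5 lower, against 5.11% and 6.68% of all genes (11.8% together), and quantile normalization gave 6 higher and 4 lower. Of all probe sets, that normalization called 2460, against 2500 without it. The interaction was negative for Ugdh, Chsy1, Chst1, Chst2 and Sulf1, which IL-1β alone had raised, and positive for B4galt7, Csgalnact1, Ext1 and Papss1, which IL-1β alone had lowered. Without replicate a of glucosamine alone, which leaves a single array in that group, fewer of the 35 were called, and fewer of all probe sets. All 21 genes called for IL-1β alone had a smaller absolute log2 change when IL-1β was added over glucosamine, but these were chosen for their change without glucosamine. Among the 14 genes not called, 7 had the smaller change with glucosamine.

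**Figure D2:**
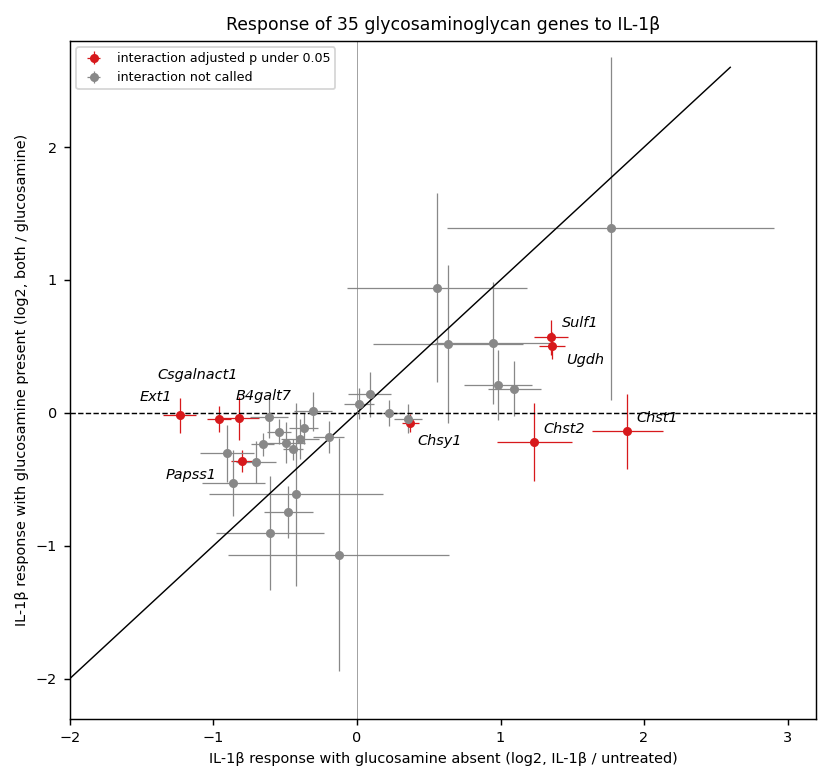
Log2 change with IL-1β in the absence of glucosamine (horizontal axis, IL-1β alone over untreated) and in its presence (vertical axis, both agents over glucosamine alone) for 35 genes, with SE as bars; red points have a called interaction, the solid line marks equal changes and the dashed line no change with glucosamine. Chst1 lies at 1.88 and -0.14, and Ext1 at -1.23 and -0.02.

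In precursor supply, Ugp2 makes UDP-glucose, Ugdh oxidizes it to the UDP-glucuronic acid that enters every chondroitin and heparan disaccharide, and Uxs1 converts that to UDP-xylose for the linker. Ugdh had signals of 779.8, 954, 815 and 912 with glucosamine plus IL-1β, 1936, 1796, 1672 and 1904 with IL-1β alone, 672 and 549 with glucosamine alone, and 699.6, 722 and 714 in untreated cultures. The 4 arrays of IL-1β alone lay above all others. Ugdh was 2.56-fold higher with IL-1β alone than in untreated cultures (log2 1.36, SE 0.09, adjusted p = 4.4e-07), and 2.11-fold lower with both agents than with IL-1β alone (log2 -1.08, SE 0.08, adjusted p = 2.2e-06). The IL-1β response over glucosamine was smaller but still called (1.42-fold, log2 0.51, SE 0.10, adjusted p = 0.026), and the interaction was called (log2 -0.85, SE 0.14, adjusted p = 0.0018).

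Both small rises of Ugdh with both agents, over glucosamine alone and over untreated cultures (1.21-fold, log2 0.28, SE 0.09, adjusted p = 0.043), were less secure. Over glucosamine the call was lost without glucosamine replicate b (adjusted p = 0.45), without replicate b or d of both agents (0.058 and 0.052), without untreated replicate b or c (0.051 for each), and with the replicate letter as a block (0.068). Over untreated cultures it was lost without any of the 3 untreated arrays (adjusted p from 0.10 to 0.13), without replicate b or d of both agents (0.11 and 0.086) and without replicate b of IL-1β alone (0.059).

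Ugp2 averaged 1484 ± 142 with both agents (n = 4), 1262 ± 149 with IL-1β alone (n = 4), 1526 ± 35 with glucosamine alone (n = 2) and 982 ± 40.9 in untreated cultures (n = 3). All treated arrays lay above the untreated arrays. The rise was 1.51-fold with both agents (log2 0.59, SE 0.10, adjusted p = 0.0007), 1.28-fold with IL-1β alone (log2 0.36, SE 0.10, adjusted p = 0.017) and 1.56-fold with glucosamine alone (log2 0.64, SE 0.11, adjusted p = 0.0026). The call for IL-1β alone was lost without untreated replicate a or b (adjusted p = 0.074 and 0.06). Every rise of Ugp2 over untreated cultures was lost in the authors' analysis of variance with Tukey's test. The paper reports no significant rise of this gene with glucosamine alone. Between both agents and IL-1β alone the difference of 0.24 (SE 0.09) had an adjusted p of 0.081, and of 0.027 with the replicate letter as a block. Uxs1 averaged 525 ± 78.2 with both agents, 495 ± 35.9 with IL-1β alone, 590.3 ± 38.5 with glucosamine alone and 566 ± 8.25 in untreated cultures, and was called in no comparison. Without both replicate d arrays it was called lower with IL-1β alone than in untreated cultures (log2 -0.23, adjusted p = 0.023) and higher with both agents than with IL-1β alone (log2 0.22, adjusted p = 0.03).

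In linker synthesis, Xylt1 and Xylt2 add xylose to the core protein, B4galt7 and B3galt6 add the first and the second galactose, B3gat3 adds the closing glucuronic acid, and Fam20b phosphorylates the xylose. B3gat1 encodes a related glucuronyltransferase known for the HNK-1 epitope. B3gat3 had signals of 304, 272, 296 and 218 with glucosamine plus IL-1β, 97.6, 97.3, 129.7 and 99.1 with IL-1β alone, 291 and 330.1 with glucosamine alone, and 150.4, 127 and 139 in untreated cultures. All 6 arrays of cultures that received glucosamine lay above all 7 that did not. B3gat3 was 2.24-fold higher with glucosamine alone than in untreated cultures (log2 1.16, SE 0.16, adjusted p = 0.00043), and 2.57-fold higher with both agents than with IL-1β alone (log2 1.36, SE 0.12, adjusted p = 9.2e-06). With IL-1β alone the arrays overlapped those of untreated cultures (log2 -0.40, SE 0.13, adjusted p = 0.052).

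The galactosyltransferases were lower with IL-1β alone, and with both agents they were not called against untreated cultures. B4galt7 averaged 86.1 ± 6.62 with both agents, 57.3 ± 8.53 with IL-1β alone, 89.5 ± 19.6 with glucosamine alone and 100.3 ± 3.91 in untreated cultures. IL-1β alone lowered it 1.77-fold (log2 -0.82, SE 0.14, adjusted p = 0.00099), and it was 1.51-fold higher with both agents than with IL-1β alone (log2 0.60, SE 0.13, adjusted p = 0.0053). Neither B4galt7 difference was kept by the authors' analysis of variance with Tukey's test. B3galt6 averaged 31.3 ± 2.74 with both agents, 18.5 ± 2.93 with IL-1β alone, 38.5 ± 1.62 with glucosamine alone and 34.5 ± 3.59 in untreated cultures. Its fall with IL-1β alone was 1.87-fold (log2 -0.91, SE 0.19, adjusted p = 0.0041), and with both agents it was 1.70-fold higher than with IL-1β alone (log2 0.76, SE 0.18, adjusted p = 0.0077). These comparisons share the arrays of IL-1β alone, and after quantile normalization the second B3galt6 difference had an adjusted p of 0.11. The interaction was called for B4galt7 (log2 0.78, SE 0.21, adjusted p = 0.044) but was lost on leaving out any of 10 single arrays (adjusted p from 0.051 to 0.27, the highest without glucosamine replicate a). For B3galt6 it had an adjusted p of 0.33.

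Of the other linker genes, Xylt2 averaged 137 ± 8.82 with both agents, 149 ± 17.3 with IL-1β alone, 149 ± 20.8 with glucosamine alone and 192 ± 12.3 in untreated cultures. It was called lower with both agents (log2 -0.49, SE 0.10, adjusted p = 0.004) and with IL-1β alone (log2 -0.37, SE 0.10, adjusted p = 0.02), the second call being lost without replicate c of IL-1β alone (0.051) or untreated replicate b or c (0.075 and 0.089). Neither of its 2 other probe sets was called in any comparison. Neither Xylt2 call was kept by the authors' analysis of variance with Tukey's test. Fam20b averaged 452 ± 48.6 with both agents and 585 ± 36.4 with IL-1β alone, a 1.3-fold difference (log2 -0.38, SE 0.08, adjusted p = 0.0044) that none of its 3 other, dimmer probe sets showed as a call. Xylt1 and B3gat1 were dim, were called in no comparison, and had their highest signals on the replicate d arrays. Without both of these arrays Xylt1 was called higher with IL-1β alone (log2 0.61, adjusted p = 0.016) and with both agents (log2 0.53, adjusted p = 0.029) than in untreated cultures.

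On the way to chondroitin chains, Csgalnact1 and Csgalnact2 add the first N-acetylgalactosamine and so commit the linker to chondroitin, and Chsy1, Chpf and Chpf2 extend the chain. Csgalnact1 averaged 878 ± 18.5 with both agents, 589 ± 75.4 with IL-1β alone, 906 ± 47.9 with glucosamine alone and 1140.0 ± 58.5 in untreated cultures, and the arrays of IL-1β alone lay below all others. It fell 1.94-fold with IL-1β alone (log2 -0.96, SE 0.09, adjusted p = 5.6e-06), and with both agents it was 1.5-fold higher than with IL-1β alone (log2 0.58, SE 0.08, adjusted p = 0.00021) but still below untreated cultures (log2 -0.38, SE 0.09, adjusted p = 0.0067). The interaction was called (log2 0.91, SE 0.13, adjusted p = 0.00083). Its other probe set was called in the same directions, with log2 -1.56 for IL-1β alone and 1.41 for the interaction. Against untreated cultures, glucosamine alone gave log2 -0.33 (adjusted p = 0.052) on the first probe set and -0.52 (adjusted p = 0.035) on the other. The first was called lower there after quantile normalization (adjusted p = 0.0078) and by the authors' analysis of variance with Tukey's test.

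Csgalnact2 followed the presence of glucosamine. It averaged 723 ± 59.0 with both agents, 379 ± 19.2 with IL-1β alone, 872 ± 56.2 with glucosamine alone and 514 ± 9.95 in untreated cultures, with no overlap between any of these groups. It was 1.69-fold higher with glucosamine alone (log2 0.76, SE 0.08, adjusted p = 7.3e-05) and 1.36-fold lower with IL-1β alone (log2 -0.44, SE 0.07, adjusted p = 0.0005) than in untreated cultures, and 1.91-fold higher with both agents than with IL-1β alone (log2 0.93, SE 0.06, adjusted p = 9.2e-07). The interaction had an adjusted p of 0.53.

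The synthase Chsy1 ran the other way. It averaged 633 ± 19.1 with both agents, 1116 ± 73.7 with IL-1β alone, 669 ± 5.16 with glucosamine alone and 861 ± 46.0 in untreated cultures. IL-1β alone raised it 1.29-fold (log2 0.37, SE 0.06, adjusted p = 0.00068), glucosamine alone lowered it 1.29-fold (log2 -0.36, SE 0.07, adjusted p = 0.0049), and it was 1.76-fold lower with both agents than with IL-1β alone (log2 -0.82, SE 0.06, adjusted p = 9.2e-07). The interaction (log2 -0.45, SE 0.09, adjusted p = 0.0088) was lost without glucosamine replicate a (adjusted p = 0.052).

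The cofactors of the synthase differed again. Chpf averaged 537 ± 34.2 with both agents, 366 ± 79.7 with IL-1β alone, 492 ± 102 with glucosamine alone and 338 ± 6.19 in untreated cultures, and was called higher with both agents than in untreated cultures (log2 0.67, SE 0.15, adjusted p = 0.0064) and than with IL-1β alone (log2 0.58, SE 0.14, adjusted p = 0.0098). Chpf2 averaged 241 ± 34.6 with both agents, 191 ± 29.8 with IL-1β alone, 280.4 ± 21.8 with glucosamine alone and 267 ± 9.84 in untreated cultures, and was called lower with IL-1β alone (log2 -0.50, SE 0.14, adjusted p = 0.019), a call lost without untreated replicate b or c (0.071 and 0.067). Both of its other probe sets were also called lower with IL-1β alone (log2 -0.75 and -0.77), and the second was called higher with both agents than with IL-1β alone (log2 0.75, adjusted p = 0.016). Between both agents and IL-1β alone, Chpf2 had an adjusted p of 0.078, and of 0.0075 with the replicate letter as a block.

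**Figure D3:**
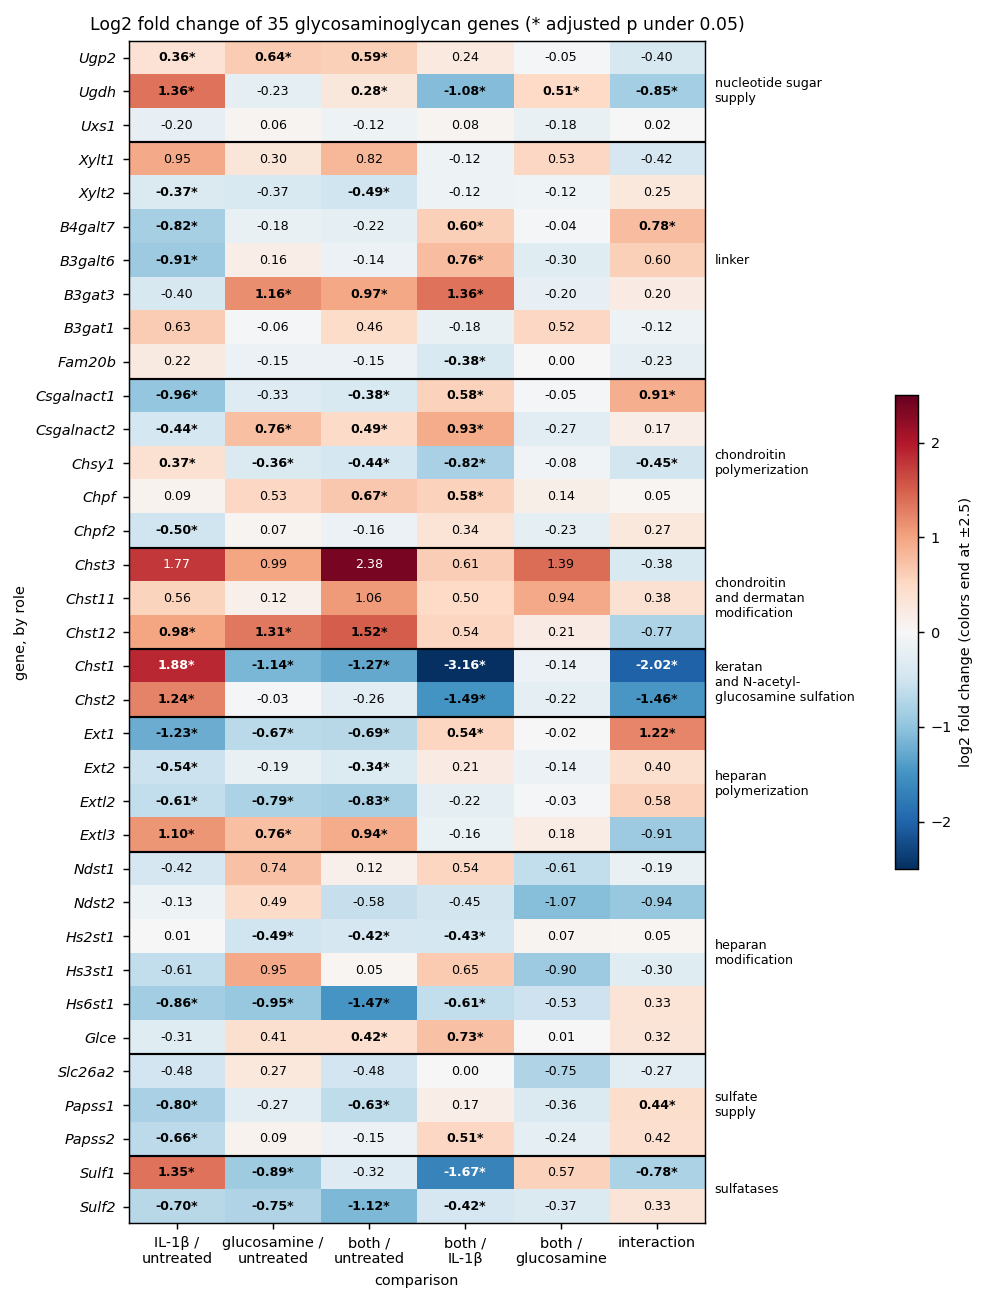
Log2 fold change (number and color; colors end at ±2.5) of 35 genes, in rows by role, in 6 comparisons, where "both" is glucosamine plus IL-1β; stars and bold type mark an adjusted p under 0.05. The column of both agents over glucosamine alone holds a single star, for Ugdh, and the column of IL-1β over untreated cultures holds 21.

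Among genes for the sulfation of chondroitin and keratan, Chst3 encodes a chondroitin 6-O-sulfotransferase and Chst11 and Chst12 encode chondroitin 4-O-sulfotransferases, and of these only Chst12 was called. Chst12 had signals of 309, 219, 287 and 155 with glucosamine plus IL-1β, 168, 139, 223 and 130.4 with IL-1β alone, 182 and 226 with glucosamine alone, and 82.0, 79.7 and 83.4 in untreated cultures. Every treated array lay above every untreated array. Chst12 was 2.87-fold higher with both agents (log2 1.52, SE 0.23, adjusted p = 0.00048), 1.98-fold higher with IL-1β alone (log2 0.98, SE 0.23, adjusted p = 0.0088) and 2.48-fold higher with glucosamine alone (log2 1.31, SE 0.28, adjusted p = 0.0076). The last call was lost without glucosamine replicate b (adjusted p = 0.092). Every rise of Chst12 over untreated cultures was lost in the authors' analysis of variance with Tukey's test. Its other probe set was called only with both agents (log2 1.03), and had log2 changes of 0.25 with IL-1β alone and 0.89 with glucosamine alone. Between both agents and IL-1β alone, the difference of 0.54 (SE 0.22) had an adjusted p of 0.11, and of 0.021 with the replicate letter as a block.

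Chst3 and Chst11 could not be measured well. Chst3 had an untreated mean of 8.08, near the floor, and its signals of 225 with both agents and 234 with IL-1β alone were both on the replicate d arrays, against 4.47 to 30.4 on the other 6 arrays of those groups. Without both replicate d arrays, Chst3 was called higher with both agents than in untreated cultures (log2 1.56, adjusted p = 0.033). Chst11 averaged 26.9 ± 16.1 with both agents, 22.9 ± 20.4 with IL-1β alone, 12.6 ± 0.439 with glucosamine alone and 11.8 ± 2.79 in untreated cultures.

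Chst1, the galactose 6-O-sulfotransferase of keratan sulfate, had signals of 3.77, 4.05, 3.97 and 0.95 with glucosamine plus IL-1β, 45.5, 48.1, 49.6 and 62.5 with IL-1β alone, 6.93 and 2.54 with glucosamine alone, and 17.4, 15.7 and 9.64 in untreated cultures. It was low in untreated cultures, clearly above the floor in all arrays of IL-1β alone, and at the floor in all arrays of both agents and in 1 of 2 arrays of glucosamine alone. IL-1β alone raised it 3.69-fold (log2 1.88, SE 0.25, adjusted p = 0.00014). With both agents it was at least 8.93-fold lower than with IL-1β alone (adjusted p = 1.5e-06) and at least 2.42-fold lower than in untreated cultures (adjusted p = 0.0026), and with glucosamine alone at least 2.20-fold lower than in untreated cultures (adjusted p = 0.024). The last was lost without either glucosamine array (adjusted p = 0.083 and 0.20) or untreated replicate a or b (0.093 and 0.089), and with the floor at the 10th or 40th percentile (0.15 and 0.75). The fall against untreated cultures with both agents was lost with the floor at the 40th percentile (adjusted p = 0.49). The interaction (log2 -2.02, adjusted p = 0.0053) also depends on the floor, and was -2.49 (adjusted p = 0.14) at the 10th percentile.

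Chst2, an N-acetylglucosamine 6-O-sulfotransferase, had signals of 42.4, 32.7, 33.2 and 19.7 with glucosamine plus IL-1β, 89.2, 79.5, 116 and 69.2 with IL-1β alone, 30.7 and 42.3 with glucosamine alone, and 34.0, 39.9 and 36.9 in untreated cultures. Only the arrays of IL-1β alone stood above the others. Chst2 rose 2.36-fold with IL-1β alone (log2 1.24, SE 0.26, adjusted p = 0.0039) and was 2.81-fold lower with both agents than with IL-1β alone (log2 -1.49, SE 0.24, adjusted p = 0.00071). The rise had an adjusted p of 0.08 after quantile normalization. Neither Chst2 difference was kept by the authors' analysis of variance with Tukey's test. The interaction (log2 -1.46, SE 0.39, adjusted p = 0.041) was lost on leaving out any of 10 single arrays (adjusted p from 0.062 to 0.22, the highest without glucosamine replicate b).

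**Figure D4:**
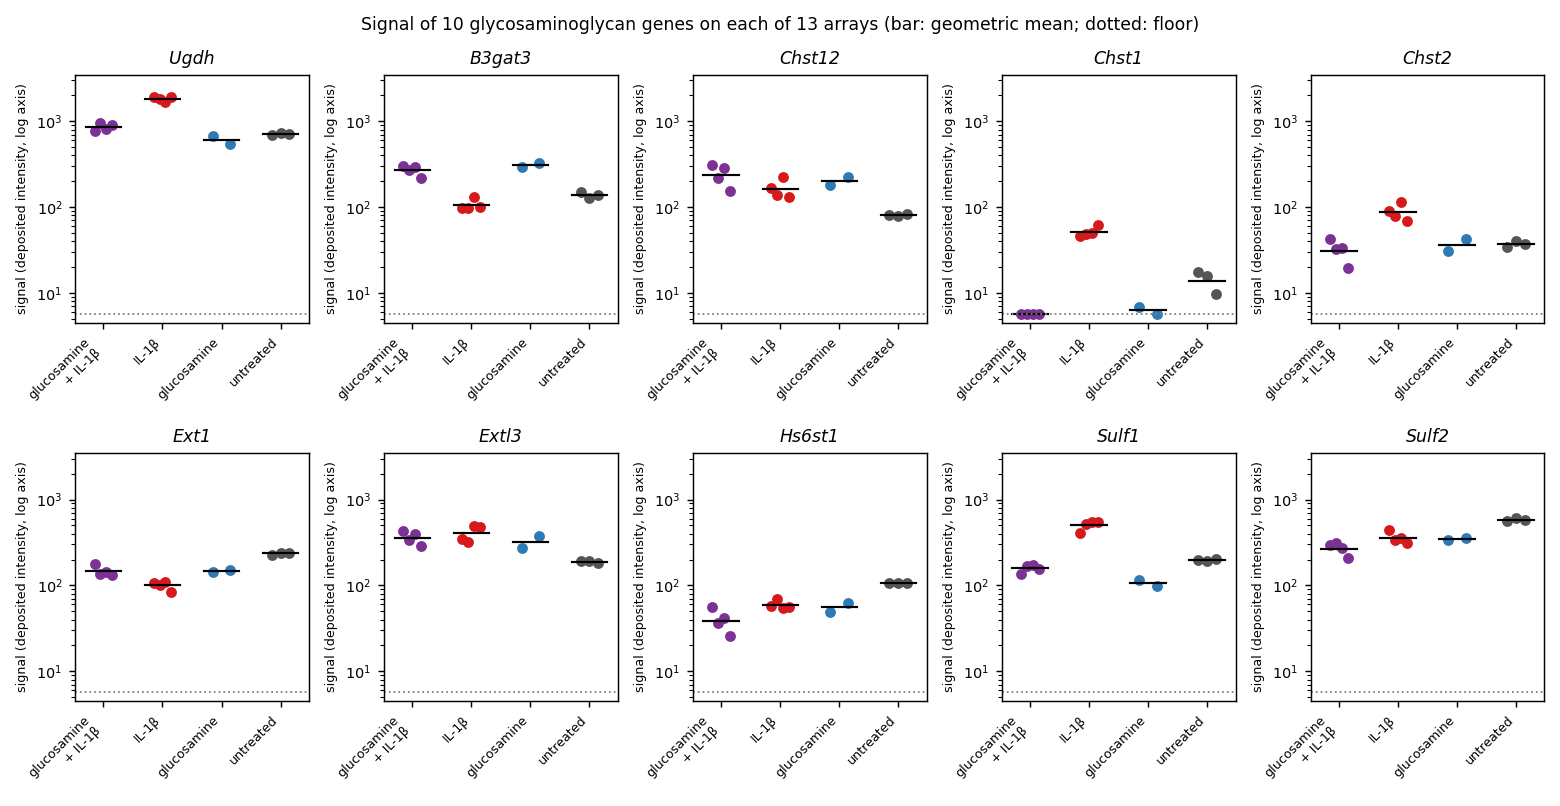
Deposited signal (vertical log axis, values under the floor drawn at the floor) of 10 genes with a called log2 change of at least 1, on each of 13 arrays; points are arrays, bars geometric means and the dotted line the floor of 5.71. Arrays of IL-1β alone stand above all others for Ugdh, Chst1, Chst2 and Sulf1, and arrays with glucosamine stand above all others for B3gat3.

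For heparan chains, Ext1 and Ext2 form the heparan sulfate polymerase, Extl3 adds the first N-acetylglucosamine to the linker, and Extl2 transfers a single sugar to the linker. Ext1 had signals of 176, 137, 144 and 131 with glucosamine plus IL-1β, 108, 102, 111 and 82.8 with IL-1β alone, 144 and 152 with glucosamine alone, and 229, 238 and 240.2 in untreated cultures. The untreated arrays lay above all others and those of IL-1β alone below all others. Ext1 fell 2.35-fold with IL-1β alone (log2 -1.23, SE 0.12, adjusted p = 9e-06), 1.61-fold with both agents (log2 -0.69, SE 0.12, adjusted p = 0.00095) and 1.59-fold with glucosamine alone (log2 -0.67, SE 0.14, adjusted p = 0.0063), the last call being lost without glucosamine replicate a (0.063). The interaction was called (log2 1.22, SE 0.18, adjusted p = 0.00098).

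A higher Ext1 signal with both agents than with IL-1β alone was called on this probe set (log2 0.54, SE 0.11, adjusted p = 0.0029) but not on its other, dimmer probe set, where the sign was opposite (log2 -0.25, adjusted p = 0.40). The interaction was not called there either (log2 0.88, adjusted p = 0.09), whereas the falls against untreated cultures were called in all 3 treatments. That probe set averaged 2.13 with both agents, 5.48 with IL-1β alone, 2.39 with glucosamine alone and 12.7 in untreated cultures, at or near the floor in the treated groups. Ext2 averaged 543 ± 49.3 with both agents, 469.6 ± 38.6 with IL-1β alone, 598 ± 50.2 with glucosamine alone and 683 ± 25.2 in untreated cultures. It was called lower with IL-1β alone (log2 -0.54, SE 0.08, adjusted p = 0.0005) and with both agents (log2 -0.34, SE 0.08, adjusted p = 0.012), the second call being lost without untreated replicate b (0.055).

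Extl3 had signals of 435, 339.9, 397 and 289 with glucosamine plus IL-1β, 349, 319, 491 and 483 with IL-1β alone, 271 and 374 with glucosamine alone, and 191, 193 and 182 in untreated cultures. It was the only heparan polymerization gene that rose, and each treated array exceeded the untreated arrays. The rise was 1.91-fold with both agents (log2 0.94, SE 0.18, adjusted p = 0.0026), 2.14-fold with IL-1β alone (log2 1.10, SE 0.18, adjusted p = 0.00084) and 1.69-fold with glucosamine alone (log2 0.76, SE 0.22, adjusted p = 0.038). The last was lost without glucosamine replicate b (adjusted p = 0.38), replicate b or c of both agents (0.052 and 0.051) or any untreated array (0.087 to 0.11), but the other Extl3 probe set was called higher in the same 3 comparisons (log2 0.71, 1.00 and 0.70). The interaction was called on that probe set (log2 -0.99, adjusted p = 0.031) and had an adjusted p of 0.07 on the first (log2 -0.91). On the first, every rise of Extl3 was lost in the authors' analysis of variance with Tukey's test. Extl2 averaged 81.0 ± 10.7 with both agents, 94.2 ± 14.7 with IL-1β alone, 82.6 ± 8.38 with glucosamine alone and 143 ± 2.95 in untreated cultures, and fell by 0.83, 0.61 and 0.79 on the log2 scale in these treatments (adjusted p = 0.00073, 0.0054 and 0.0056). No fall of Extl2 was kept by the authors' analysis of variance with Tukey's test. Its fall with glucosamine alone was lost without glucosamine replicate b (adjusted p = 0.076), and its other probe set was called in none of the 3.

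Heparan modification begins with Ndst1 and Ndst2, which exchange acetyl for sulfate groups on glucosamine residues. Glce then epimerizes glucuronic acid, and Hs2st1, Hs6st1 and Hs3st1 add sulfate at the positions in their names. Hs6st1 had signals of 55.7, 36.6, 42.2 and 25.8 with glucosamine plus IL-1β, 57.6, 68.6, 55.2 and 55.4 with IL-1β alone, 48.8 and 63.2 with glucosamine alone, and 108, 106 and 108 in untreated cultures. Each treated array lay far below the untreated arrays. The fall was 2.78-fold with both agents (log2 -1.47, SE 0.22, adjusted p = 0.00035), 1.82-fold with IL-1β alone (log2 -0.86, SE 0.22, adjusted p = 0.012) and 1.93-fold with glucosamine alone (log2 -0.95, SE 0.26, adjusted p = 0.03). The last was lost without either glucosamine array (adjusted p = 0.24 and 0.069) or any untreated array (0.078 to 0.082), and the fall with IL-1β alone had an adjusted p of 0.095 after quantile normalization. The difference between both agents and IL-1β alone was barely called (log2 -0.61, SE 0.20, adjusted p = 0.047), its arrays overlapped, and it was lost on leaving out any of 12 single arrays (adjusted p from 0.056 to 0.13, the highest without replicate b of IL-1β alone).

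Against untreated cultures, a dimmer Hs2st1 probe set had log2 changes of 0.17 with both agents and 0.18 with glucosamine alone. Another had -0.25 and -0.11. The representative of Hs2st1 was lower in both groups with glucosamine, although the authors' analysis of variance with Tukey's test kept none of its calls. It averaged 233 ± 26.2 with both agents, 315 ± 35.4 with IL-1β alone, 221 ± 12.8 with glucosamine alone and 310.4 ± 7.54 in untreated cultures. It was called lower with both agents than with IL-1β alone (log2 -0.43, SE 0.09, adjusted p = 0.0053) and than in untreated cultures (log2 -0.42, SE 0.10, adjusted p = 0.0098), and with glucosamine alone than in untreated cultures (log2 -0.49, SE 0.12, adjusted p = 0.018). The last was lost without either glucosamine array (adjusted p = 0.15 and 0.066) or untreated replicate a or c (0.06 and 0.0502), and neither of its 2 dimmer probe sets was called in any comparison.

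Glce averaged 224 ± 38.9 with both agents, 135 ± 19.0 with IL-1β alone, 221 ± 18.0 with glucosamine alone and 166 ± 6.93 in untreated cultures. It was 1.65-fold higher with both agents than with IL-1β alone (log2 0.73, SE 0.12, adjusted p = 0.00095). Against untreated cultures its rise with both agents (log2 0.42, SE 0.13, adjusted p = 0.037) was lost without replicate b or d of both agents (0.066 and 0.058) or any untreated array (0.074 to 0.13). Neither agent alone gave a call against untreated cultures with all arrays. Without both replicate d arrays, Glce was called lower with IL-1β alone (log2 -0.40, adjusted p = 0.001) and higher with glucosamine alone (log2 0.41, adjusted p = 0.0027).

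Ndst1, Ndst2 and Hs3st1 were called in no comparison. Ndst2 shows how much the replicate d arrays weigh here, with a signal of 1.13 on replicate d of both agents against 77.0 to 89.7 on the other 3. Without both replicate d arrays, Ndst2 was called higher with glucosamine alone than in untreated cultures (log2 0.49, adjusted p = 0.014), and with both agents than in untreated cultures (log2 0.38, adjusted p = 0.019) and than with IL-1β alone (log2 0.40, adjusted p = 0.017). Hs3st1 was below 0 on all 4 arrays of IL-1β alone (-4.10 to -1.96) and averaged 9.83 ± 7.37 with both agents, 16.8 ± 0.356 with glucosamine alone and 8.96 ± 2.59 in untreated cultures. Without both replicate d arrays, Hs3st1 was called higher with glucosamine alone than in untreated cultures (log2 0.95, adjusted p = 0.016) and lower with both agents than with glucosamine alone (log2 -1.30, adjusted p = 0.016). Its other values depend on the floor, and with the floor at the 10th percentile it was called lower with IL-1β alone than in untreated cultures (log2 -3.47, adjusted p = 0.00071, against -0.61 and 0.32 at the 25th percentile) and higher with both agents than with IL-1β alone (log2 3.37, adjusted p = 0.00055, against 0.65 and 0.25). Ndst1 averaged 28.7 with glucosamine alone and 17.3 ± 1.13 in untreated cultures.

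For the supply of sulfate, Slc26a2 carries sulfate into the cell, and Papss1 and Papss2 make PAPS from it. Papss1 averaged 494 ± 36.1 with both agents, 438 ± 20.2 with IL-1β alone, 636 ± 76.8 with glucosamine alone and 765 ± 19.0 in untreated cultures. It fell 1.75-fold with IL-1β alone (log2 -0.80, SE 0.07, adjusted p = 7.2e-06) and 1.55-fold with both agents (log2 -0.63, SE 0.07, adjusted p = 5.6e-05). Its interaction (log2 0.44, SE 0.11, adjusted p = 0.031) was lost on leaving out any of 7 single arrays (adjusted p from 0.057 to 0.20, the highest without glucosamine replicate a).

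Papss2 fell with IL-1β alone, and with both agents it was higher than with IL-1β alone. It averaged 709 ± 59.6 with both agents, 498 ± 44.7 with IL-1β alone, 834 ± 23.5 with glucosamine alone and 783 ± 12.2 in untreated cultures. The fall with IL-1β alone was 1.58-fold (log2 -0.66, SE 0.08, adjusted p = 6.5e-05), and with both agents it was 1.42-fold higher than with IL-1β alone (log2 0.51, SE 0.07, adjusted p = 0.0003). Its other probe set was called in the same 2 comparisons (log2 -0.87 and 0.55). With both agents the log2 change against untreated cultures was -0.15 (SE 0.08, adjusted p = 0.24), and the interaction had an adjusted p of 0.053. Slc26a2 was near or under the floor in every group, from 12.1 down to -13.9, so that its changes rest on the floor, and after quantile normalization it was called lower with both agents than with glucosamine alone (log2 -0.98, adjusted p = 0.017, against -0.75 and 0.10).

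The sulfatases Sulf1 and Sulf2 are secreted enzymes that remove 6-O-sulfate groups from heparan sulfate, and alter how it binds growth factors. Sulf1 had signals of 136, 170.5, 172 and 154 with glucosamine plus IL-1β, 404, 526, 542 and 550.1 with IL-1β alone, 116 and 97.5 with glucosamine alone, and 195, 195 and 201 in untreated cultures. The groups did not overlap, with IL-1β alone highest and glucosamine alone lowest. Sulf1 rose 2.55-fold with IL-1β alone (log2 1.35, SE 0.12, adjusted p = 4.9e-06), fell 1.85-fold with glucosamine alone (log2 -0.89, SE 0.14, adjusted p = 0.0011), and was 3.19-fold lower with both agents than with IL-1β alone (log2 -1.67, SE 0.11, adjusted p = 6.4e-07). Its fall with glucosamine alone was lost in the authors' analysis of variance with Tukey's test. The interaction (log2 -0.78, SE 0.18, adjusted p = 0.018) was lost without glucosamine replicate a (adjusted p = 0.12). A second Sulf1 probe set averaged under the floor in every group and gives no information.

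Sulf2 had signals of 292, 309.7, 275 and 207 with glucosamine plus IL-1β, 441, 336, 361 and 309 with IL-1β alone, 338 and 355 with glucosamine alone, and 563, 607 and 578 in untreated cultures. All treated arrays lay below the untreated arrays. The fall was 2.17-fold with both agents (log2 -1.12, SE 0.14, adjusted p = 9.6e-05), 1.62-fold with IL-1β alone (log2 -0.70, SE 0.14, adjusted p = 0.0028) and 1.68-fold with glucosamine alone (log2 -0.75, SE 0.17, adjusted p = 0.0096). The last was lost without either glucosamine array (adjusted p = 0.08 and 0.059). Between both agents and IL-1β alone the arrays overlapped, and the difference (log2 -0.42, SE 0.13, adjusted p = 0.036) was lost on leaving out any of 10 single arrays (adjusted p from 0.051 to 0.092, the highest without replicate a of IL-1β alone).

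Related enzymes were set against each other by the difference of their log2 changes, with two-sided exact permutation tests over arrays for 8 pairs in 3 comparisons. None of the 24 differences passed after Benjamini-Hochberg adjustment, and 3 had an unadjusted p under 0.05. The smallest p these designs allow is 0.0286, or 0.1 for glucosamine alone against untreated cultures. Adjusted over 24 tests, 0.0286 passes only if nearly all tests that can reach it do so. The adjusted test could therefore hardly pass, and does not show that any pair moved alike. With IL-1β alone against untreated cultures, Sulf1 and Sulf2 moved apart by 2.05 on the log2 scale (exact p = 0.0286, adjusted 0.16), and Csgalnact1 fell by 0.52 more than Csgalnact2 (exact p = 0.0286, adjusted 0.16). With both agents against IL-1β alone, Sulf1 and Sulf2 differed by -1.25 (exact p = 0.0286, adjusted 0.16).

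Across the 35 genes, 9 were called in no comparison, and all of them except Uxs1, Xylt1 and B3gat1 had at least 1 array at the floor. Of 10 genes with an untreated mean under 50, the replicate d signal lay outside replicates a to c on the same side in both IL-1β groups for 7, above them for Xylt1, B3gat1, Chst3 and Chst11 and below them for Chst2, Ndst1 and Slc26a2. Of 25 brighter genes this held for 11, with 4 above and 7 below. For Chst1, Hs3st1, Uxs1 and Chpf it lay outside in both groups but on opposite sides. Another 16 probe sets of 11 members gave 96 further comparisons. In 39 of these the gene's representative was called, and the other probe set had the same call in 15, no call in 24 and an opposite call in 0.

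A further 30 genes act beside these in the same pathways, of which 22 had a probe set of their own and 21 were tested. With both agents, 2 of the 21 were called higher and 4 lower than in untreated cultures, where 31.4% of all genes tested were called. With IL-1β alone 2 were higher and 7 lower (30.8% of all genes), and with glucosamine alone 0 and 3 (19.7% of all genes). With both agents against IL-1β alone 5 were higher and 1 lower (30.6% of all genes), and against glucosamine alone none was called in limma (2.57% of all genes), with 0 higher and 2 lower at an unadjusted p under 0.05. With 21 genes and no match for signal, whether these shares differ from those of all genes was not tested. The interaction was called higher for 3 of the 21 and lower for 1 (11.8% of all genes). Chsy3, a chondroitin synthase, averaged 44.9 with both agents, 212 with IL-1β alone, 43.4 with glucosamine alone and 33.0 in untreated cultures, and rose 6.15-fold with IL-1β alone (log2 2.62, SE 0.30, adjusted p = 4.2e-05). Its interaction was -2.65 (SE 0.45, adjusted p = 0.0028).

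Pxylp1, the phosphatase that reverses the xylose phosphorylation by Fam20b, averaged 201 with both agents, 147 with IL-1β alone, 240.4 with glucosamine alone and 474 in untreated cultures. It fell 3.21-fold with IL-1β alone (log2 -1.68, SE 0.06, adjusted p = 2.5e-09) and 1.97-fold with glucosamine alone (log2 -0.98, SE 0.07, adjusted p = 2.5e-06). Slc35b2, which carries PAPS into the Golgi, was lower with IL-1β alone than in untreated cultures (log2 -0.44, adjusted p = 0.0038) and higher with both agents than with IL-1β alone (log2 0.80, adjusted p = 3.2e-05). Chst14, the dermatan 4-O-sulfotransferase, moved in the same directions (log2 -0.82, adjusted p = 3.6e-05, and log2 0.58, adjusted p = 0.00033). These last comparisons share the arrays of IL-1β alone.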

How the data were processed

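Expression was measured in 13 cultures, 1 array each. The values are intensities deposited by the authors, 1 linear value per probe set and array, partly below 0. According to the methods, Probe Profiler made them and scaled them globally to 100, whereas the labels name MAS5 version 5. The array means lay between 127 and 145, and no further scaling was applied. The methods state that the samples with the best optical density ratios were labelled and that arrays were removed in quality control.

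After 57 control probe sets were left out, values were floored at their 25th percentile before log2 was taken, and any probe set that never exceeded the floor was not tested. A single limma model (version 3.58.1, R 4.3.3; lmFit, then eBayes with trend, two-sided) covered the 4 groups and was tested on simulated data, and p-values were adjusted over all 29263 probe sets. The simulation had independent noise, and changes only with IL-1β alone on probe sets well above the floor. It does not cover the glucosamine comparisons, genes near the floor or the shared shift of the replicate d arrays. A fold against a group with an array at the floor is a lower bound. Gene symbols came from the platform annotation: 20826 probe sets had 1 gene, 436 several and 9780 none. The number of arrays limits the precision.

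Members and lists were chosen with earlier results of these data known. Genes given array by array are those called in at least 1 comparison with an absolute log2 change of 1 or more. Marker lists covered chondrocytes, fibroblasts, leukocytes, endothelial, bone, smooth muscle and fat cells. On a check list with Ptgs2 and Il6, the 1 probe set annotated to Nos2 alone was at the floor on all arrays, which does not give the level of that gene.

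Replicate letters come from the sample labels. Deviations from the group means correlated between same-lettered arrays of glucosamine plus IL-1β and of IL-1β alone (r of 0.375, 0.449, 0.533 and 0.797 for a to d). The highest r with another letter was 0.499, 0.402, 0.561 and -0.472. The group means include replicate d, which stood apart, so a to c can correlate whatever their letter. A match by letter was thus clear only for d, and the main fit has no block. Alternatives were other floors and scalings, no variance trend, no filter, fits to 2 groups, the methods' analysis of variance with Tukey's test, the letter as a block, leaving out arrays, and the probe set of largest variance.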

Additional observations from a re-analysis of the deposited data

Results flagged for a closer look

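Of 70 groups of 4 arrays, 13 had an array far from the other 3, and 10 of the 13 were a replicate d array. For independent normal values the rule would flag about 1 in 20. These groups share the same arrays, so that rate does not apply, and the share of all genes flagged is not given here. High signals were B3gat1 (108), Chst3 (225), Chst11 (51.1) and B4galt7 (95.9) with glucosamine plus IL-1β, and Xylt1 (54.7), B3gat1 (119.7), Chst3 (234) and B3gat3 (129.7) with IL-1β alone. Low signals were Chpf2 (190.3), Chst1 (0.95), Ndst2 (1.13) and Slc26a2 (-13.9) with glucosamine plus IL-1β, and Sulf1 (404) with IL-1β alone. The exceptions to replicate d were B3gat3, on replicate c, and B4galt7 and Sulf1, on replicate a.

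The response to IL-1β with glucosamine present differed from that without it, by the interaction test in limma, for 9 genes. The difference on the log2 scale was -0.85 for Ugdh, -0.45 for Chsy1, -2.02 for Chst1, -1.46 for Chst2 and -0.78 for Sulf1, and 0.78 for B4galt7, 0.91 for Csgalnact1, 1.22 for Ext1 and 0.44 for Papss1. What stands behind these differences was not tested.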

How the results depend on the processing

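Members called numbered 21 for IL-1β alone, 13 for glucosamine alone and 19 for both agents against untreated cultures, 1 for both agents against glucosamine, 18 against IL-1β, and 9 for the interaction. The methods' analysis of variance with Tukey's test called 12, 8, 8, 4 and 10 in the first 5 of these and was not run for the interaction. That test kept 37 and lost 35 of the limma calls on single genes. It added calls of Csgalnact2, Papss1 and Papss2 as lower with both agents than with glucosamine alone. It also added Csgalnact1 and Papss1 as lower with glucosamine alone than in untreated cultures. Lost were, among others, every call of Ugp2, Xylt2, B4galt7, Fam20b, Chpf, Chpf2, Chst12, Chst2, Ext2, Extl2, Extl3 and Hs2st1 there. The call of Sulf1 with glucosamine alone was lost too. Of all probe sets, limma called 7067, 4300, 6986, 525, 6822 and 2500 in this order, and that test 2816, 2441, 2733, 865 and 2704. Fits to the 2 groups alone called 22 for glucosamine alone and 0 for both agents against glucosamine (9173 and 148 of all probe sets). Without both replicate d arrays these were 20 and 3 (7108 and 894 of all probe sets). For both agents against glucosamine, the floor at the 40th percentile gave 2, quantile normalization 3, and no variance trend 0 (550, 527 and 479 of all probe sets). Quantile normalization also ended calls for Hs6st1, Extl2 and Extl3 with glucosamine alone (adjusted p = 0.29, 0.052 and 0.056), Glce with both agents against untreated cultures (0.056) and the interaction of Chst2 (0.19). With the replicate letter as a block the counts were 24, 16, 21, 0, 21 and 10, and over all probe sets 8882, 5755, 8846, 597, 9181 and 3521. Ugp2, Chpf2 and Chst12 were gained against IL-1β, and the block changed no other call there. Outside that comparison the letters are only a number, and inside it a match by letter was clear only for replicate d. Ugdh (both comparisons) and B4galt7 (interaction) lost a call outside it. Leaving out single arrays gave 18 to 23, 7 to 16, 16 to 20, 0 to 2, 16 to 20, and 4 to 11. Over all probe sets, leaving out single arrays of the other groups than glucosamine alone gave 5378 to 8375, 3140 to 5222 and 5317 to 7753 against untreated cultures. In the same fits, both agents against glucosamine gave 410 to 588, against IL-1β 5704 to 8029, and the interaction 1804 to 3044. Without an array of glucosamine alone, fewer of all probe sets were called for glucosamine alone and for the interaction. The remaining glucosamine array is then assumed to vary as the other groups do. Over all alternatives run, a sign turned for a called gene only for Ext1 between both agents and IL-1β alone with the probe set of largest variance (log2 -0.25). The floor limits what can be said of Chst1, Chst3, Chst11, Ndst1, Hs3st1 and Slc26a2.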
